A study of Mus musculus with 6 samples.

Results

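The collagen genes outside cartilage were every gene on the Illumina MouseWG-6 v2 array whose symbol has the form Col, a number, a and a number, apart from Col2a1, Col9a1, Col9a2 and Col9a3. There were 37 such genes, with 80 probes, among 19057 genes with a probe of 1 symbol. A probe was above background (detection p under 0.01 against the array's negative control beads) on at least 1 array for 45 of the 80 probes, which left 29 of the 37 collagen genes among 10160 genes tested. The other 8, Col13a1, Col22a1, Col25a1, Col4a3, Col4a4, Col6a4, Col6a5 and Col6a6, had no probe above background on any array and were not tested. The rule goes by gene symbol and by detection on any array. It was set with earlier results of these data known.

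RNA came from 2 Rnaseh2b-/- and 4 Rnaseh2b+/+ lines of mouse embryonic fibroblasts (MEFs), all of them p53-/- and on a C57BL/6J background. The Rnaseh2b-/- lines carry the tm1d null allele, in which Cre had removed exon 5 from the EUCOMM tm1a allele, and the 2 lines on the arrays were picked by the study from its null lines for a stronger interferon-stimulated gene response. Each line was grown from a single whole embryo at E10.5 in 3% oxygen, so it can hold any adherent cell of the embryo that grew, and RNA was taken 20 h after fresh medium. The comparison asks which transcripts change when RNase H2, the enzyme that removes ribonucleotides from DNA and degrades RNA:DNA hybrids, is lost.

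Rnaseh2b, the targeted gene, had a log2 signal of 5.43 and 5.53 in the Rnaseh2b-/- lines and of 9.81, 9.17, 9.48 and 9.50 in the Rnaseh2b+/+ lines. The fitted difference was -4.01 on the log2 scale (SE 0.19, adjusted p = 0.00121, limma), so the signal followed the labels in all 6 lines, though whether its probes lie in the deleted exon was not examined. Each array had 15519 to 16114 probes above background. The median log2 fold change over all genes tested was -0.02. Permuting 2 and 4 lines exactly allows no p below 0.0667 for any gene by itself, and the smaller p-values given here rest on limma's model, which borrows the spread of other genes.

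Collagens are the main proteins of the extracellular matrix, and fibroblasts are their main source. Each molecule is a triple helix of 3 alpha chains, so the product of a collagen gene depends on its partner chains. Fibrillar collagens pack into the cross-banded fibrils that give tissue its tensile strength, type IV collagens form the sheet of basement membranes, and other types build short networks, anchor epithelia, sit on fibril surfaces or span the cell membrane. New chains are hydroxylated, glycosylated and folded in the endoplasmic reticulum before they are exported and trimmed.

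Promoter windows from RefSeq (build GRCm38.p6, 250 bases before to 50 after the gene start) were found for 25 of the 29 tested collagen genes, with 27 windows. The 4 measured type IV genes are shown because they lie in head-to-head pairs, and Col8a1 because it had the largest negative fold change among collagen genes above background in both groups. Col4a1 (chr8:11312777-11313076, minus strand) and Col4a2 (chr8:11312555-11312854, plus strand) start 21 bases apart on opposite strands, and their windows share 78 bases. Col4a5 (chrX:141475169-141475468, plus strand) and Col4a6 (chrX:141474027-141474326, minus strand) start 1343 bases apart, and the Col8a1 window is at chr16:57754688-57754987, minus strand. Capitals mark GC boxes (GGGCGG, the core bound by Sp1-type factors) and CCAAT boxes (CCAAT), searched on both strands.
Col4a1: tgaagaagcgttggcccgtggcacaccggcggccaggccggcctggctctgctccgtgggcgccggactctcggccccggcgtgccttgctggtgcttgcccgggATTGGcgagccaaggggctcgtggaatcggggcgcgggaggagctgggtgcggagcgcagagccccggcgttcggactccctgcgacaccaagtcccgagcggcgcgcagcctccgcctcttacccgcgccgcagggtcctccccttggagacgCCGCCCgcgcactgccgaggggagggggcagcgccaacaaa
Col4a2: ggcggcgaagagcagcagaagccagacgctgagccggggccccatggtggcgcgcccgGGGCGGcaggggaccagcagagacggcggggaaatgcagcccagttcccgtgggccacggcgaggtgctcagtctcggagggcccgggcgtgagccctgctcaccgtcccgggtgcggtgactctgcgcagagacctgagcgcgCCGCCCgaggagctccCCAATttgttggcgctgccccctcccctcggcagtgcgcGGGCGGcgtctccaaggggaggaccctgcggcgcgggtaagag
Col4a5: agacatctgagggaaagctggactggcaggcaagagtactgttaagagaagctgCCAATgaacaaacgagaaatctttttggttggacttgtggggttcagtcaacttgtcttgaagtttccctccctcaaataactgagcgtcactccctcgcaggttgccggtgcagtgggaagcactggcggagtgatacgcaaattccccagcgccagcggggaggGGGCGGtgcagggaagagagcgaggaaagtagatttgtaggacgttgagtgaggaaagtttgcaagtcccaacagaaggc
Col4a6: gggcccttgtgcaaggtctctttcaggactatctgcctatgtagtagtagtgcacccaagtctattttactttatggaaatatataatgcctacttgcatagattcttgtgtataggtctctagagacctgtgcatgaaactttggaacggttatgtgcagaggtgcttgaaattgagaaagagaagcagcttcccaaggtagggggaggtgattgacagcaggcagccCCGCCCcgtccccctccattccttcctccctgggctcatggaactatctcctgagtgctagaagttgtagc
Col8a1: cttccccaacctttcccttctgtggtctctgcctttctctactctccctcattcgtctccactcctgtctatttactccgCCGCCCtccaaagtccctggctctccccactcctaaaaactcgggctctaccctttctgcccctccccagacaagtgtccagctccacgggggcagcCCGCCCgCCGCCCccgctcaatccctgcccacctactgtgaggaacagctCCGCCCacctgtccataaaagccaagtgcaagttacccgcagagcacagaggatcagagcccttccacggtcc
The Col8a1 window held 4 GC boxes, that of Col4a2 held 3, and those of Col4a1, Col4a5 and Col4a6 held 1 each. A GC box was present in 18 of the 27 collagen windows (66.7%), in 7 of 9 windows of the genes lower at an unadjusted p (77.8%) and in 35.7% of all 32851 windows of that length. CCAAT was present in 10 of 27 collagen windows (37.0%) and in 37.4% of all windows. TATAAA was in 4 of 27 (14.8%) against 13.6%, and TGANTCA, the letters of an AP-1 site, in 1 of 27 (3.7%) against 7.81%. These are matches of letters and carry no measurement of binding.

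Most measured collagen genes had lower signal in the Rnaseh2b-/- lines, but no single gene passed the threshold. Of 29 tested, 20 had a negative and 9 a positive log2 fold change, against 5340 and 4820 of all 10160 genes tested. The median of the 29 was -0.25 and the range -1.77 to 2.34. None was higher and none lower at an adjusted p under 0.05 (limma, Benjamini-Hochberg over all 10160 genes), where 0.354% of all genes tested were higher and 0.157% lower. By the unadjusted p (under 0.05), 10 of 29 were lower, against 9.13% of all genes tested, and 2 were higher, against 7.99%. Without Rnaseh2b-/- replicate 1, 19 of 27 had a negative log2 fold change, with a median of -0.27. Both Rnaseh2b-/- lines lay below all 4 controls for 12 of 29, against 15.1% of all genes, and above all 4 for 2 of 29, against 12.5%.

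Some of these genes were measured in a single group. The signal of 3 (Col5a3, Col10a1 and Col11a1) was above background only in Rnaseh2b+/+ lines and that of 3 (Col19a1, Col26a1 and Col28a1) only in Rnaseh2b-/- lines. Among the 23 collagen genes above background in both groups, by the unadjusted p 7 were lower and 1 higher, against 8.71% and 7.02% of the 9160 such genes in all. RNA was measured in bulk, so fewer cells of a type and less RNA per cell cannot be told apart.

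**Figure D1:**
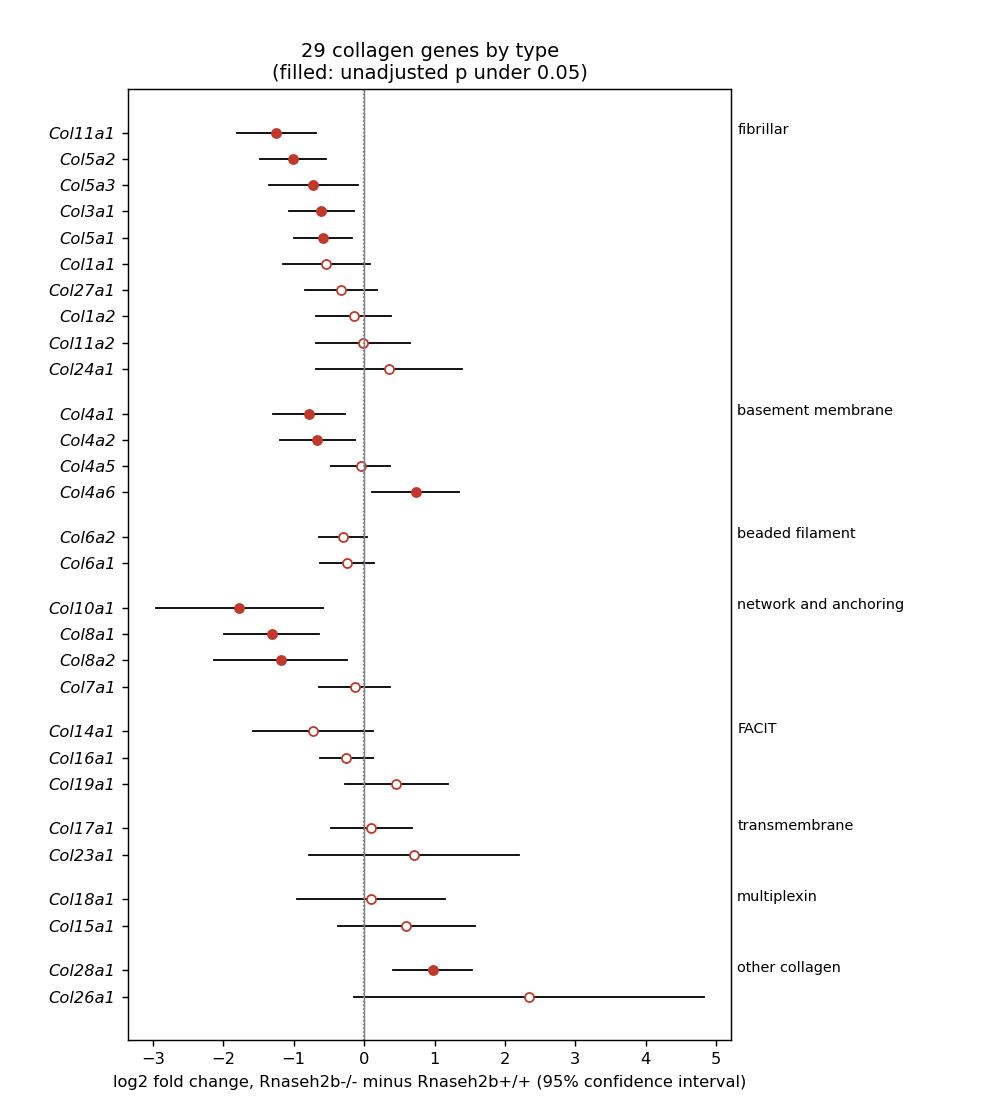
Log2 fold change (Rnaseh2b-/- minus Rnaseh2b+/+, x axis) of the 29 tested collagen genes, 1 row per gene and grouped by type, with points for the estimate and lines for its 95% confidence interval from limma. Filled points have an unadjusted p under 0.05 (12 genes: 10 to the left of 0, 2 to the right), and the dotted line is the median of all genes tested (-0.02).

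Fibrillar collagens were lower in the Rnaseh2b-/- lines for 9 of 10 genes by the sign of the fold change (5340 of all 10160 genes tested). Of these, 5 were lower at an unadjusted p (9.13% of all genes tested), and 6 had both Rnaseh2b-/- lines below every control (15.1% of all genes tested). The median log2 fold change of the 10 was -0.56 (-0.45 with the 2 genes that were below background in the Rnaseh2b-/- lines set at their bound), against -0.02 over all genes tested. Among the 8 fibrillar genes above background in both groups, 3 were lower at an unadjusted p, against 8.71% of all such genes. Both Rnaseh2b-/- lines were below every control for 4 of the 8 (15.1% of all genes tested). Without Rnaseh2b-/- replicate 1, 7 of the 10 fibrillar genes were negative, with a median of -0.46. The list includes the minor fibrillar types V and XI, which copolymerise with the major types and set how fibrils start and how thick they grow. The mean over the 10 genes, as log2 signal minus the mean of the controls, was -0.62 and -0.35 in the Rnaseh2b-/- lines and -0.07, 0.11, -0.04 and -0.01 in the Rnaseh2b+/+ lines.

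Col11a1, an alpha chain of type XI collagen, had log2 signals of 5.07 and 4.89 in the Rnaseh2b-/- lines, not above background, and of 5.71, 6.31, 6.38 and 6.52 in the Rnaseh2b+/+ lines. It was at least 1.58-fold lower in the Rnaseh2b-/- lines, as a bound set by the lowest detected signal of each Rnaseh2b-/- array (measured log2 fold change -1.25, standard error 0.24, adjusted p = 0.0780). No line of either group crossed into the other. Both of its probes gave a negative fold change, -1.19 and -1.30. Col11a2, a partner chain, was at 4.97 and 6.02 in the Rnaseh2b-/- lines and between 5.32 and 5.69 in the Rnaseh2b+/+ lines, which lie between them (log2 fold change -0.02, adjusted p = 0.976).

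Type V collagen takes its chains from Col5a1, Col5a2 and Col5a3. For Col5a1 and Col5a2 both Rnaseh2b-/- lines were below every control. Col5a2 had log2 signals of 8.13 and 7.91 in the Rnaseh2b-/- lines and of 8.74, 9.07, 9.37 and 8.92 in the Rnaseh2b+/+ lines (log2 fold change -1.01, standard error 0.20, adjusted p = 0.0814). Its 2 probes gave -1.20 and -0.82, and with each probe tested on its own the first passed the threshold (adjusted p = 0.0477). Col5a1 had 12.86 and 12.90 in the Rnaseh2b-/- lines and 13.19, 13.75, 13.49 and 13.42 in the Rnaseh2b+/+ lines, that is -0.58 on the log2 scale (standard error 0.18, adjusted p = 0.185), with the Rnaseh2b-/- lines 0.04 apart. Col5a3, the least widely expressed of the chains, stayed at background in the Rnaseh2b-/- lines (4.93 and 5.48). It was tested only because of the Rnaseh2b+/+ lines, which had 5.53, 5.83, 5.93 and 6.40. Of these 3 were above background, and the lowest was not. Col5a3 was at least 1.28-fold lower in the Rnaseh2b-/- lines (measured log2 fold change -0.72, adjusted p = 0.243).

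Next came the major fibrillar collagens. Col3a1, whose type III homotrimer is abundant in skin and vessel walls, had log2 signals of 9.61 and 9.88 in the Rnaseh2b-/- lines and of 10.32, 10.69, 10.35 and 10.05 in the Rnaseh2b+/+ lines (log2 fold change -0.61, standard error 0.20, adjusted p = 0.208). Its 2 probes gave -0.38 and -0.83. Col1a1, which with Col1a2 makes type I collagen, the main protein of skin and bone, was at 12.16 and 12.12 in the Rnaseh2b-/- lines and at 13.26, 12.30, 12.47 and 12.67 in the Rnaseh2b+/+ lines, below every control but by a gap of only 0.14 (log2 fold change -0.54, standard error 0.26, unadjusted p = 0.0810, adjusted p = 0.342). Col1a2 was at 12.63 and 13.13 in the Rnaseh2b-/- lines and at 12.88, 13.44, 12.94 and 12.85 in the Rnaseh2b+/+ lines, and the groups overlapped (log2 fold change -0.15, 95% interval -0.68 to 0.39). Col27a1 (-0.33, adjusted p = 0.472) and Col24a1 (0.35, adjusted p = 0.713), the late-found fibrillar chains of cartilage and bone, overlapped the controls as well.

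**Figure D2:**
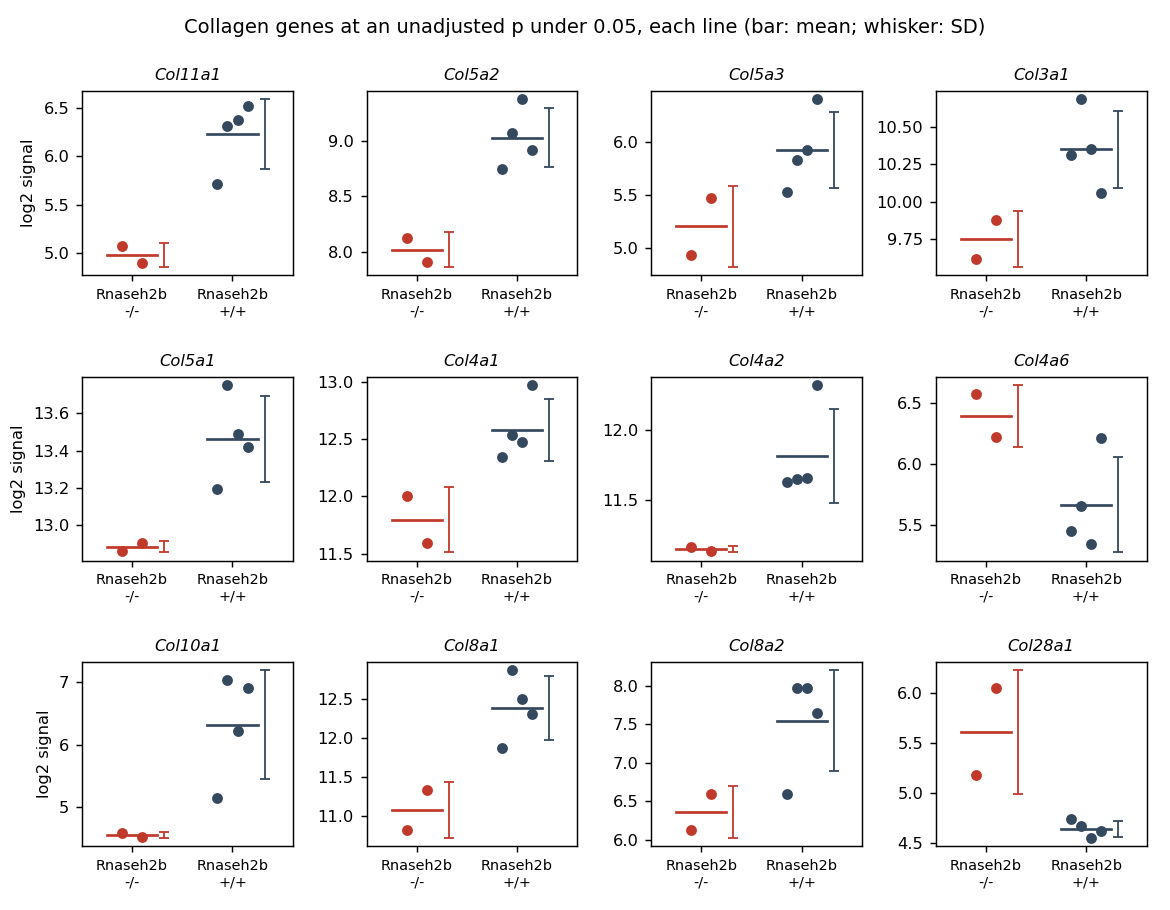
Log2 signal (y axis, a separate scale in each panel) of the 12 collagen genes at an unadjusted p under 0.05 in each line, with 2 Rnaseh2b-/- lines to the left and 4 Rnaseh2b+/+ lines to the right. Points are lines, horizontal bars group means and whiskers the SD. The points of the groups do not overlap in any panel, and among genes above background in both groups the gap was 0.62 for Col5a2 and near 0 for Col8a2 and Col4a6.

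Of 4 tested basement membrane collagens, by the unadjusted p 2 were lower and 1 higher (9.13% and 7.99% of all genes tested), with a median log2 fold change of -0.36. Col4a1 and Col4a2, whose chains join as the widespread type IV trimer and whose starts lie 21 bases apart, were both below every control. Col4a1 had log2 signals of 12.00 and 11.59 in the Rnaseh2b-/- lines and of 12.34, 12.53, 12.48 and 12.97 in the Rnaseh2b+/+ lines (log2 fold change -0.78, standard error 0.21, adjusted p = 0.157). Col4a2 had 11.17 and 11.13 in the Rnaseh2b-/- lines and 11.63, 11.65, 11.66 and 12.33 in the Rnaseh2b+/+ lines (log2 fold change -0.67, standard error 0.22, adjusted p = 0.219). Rnaseh2b+/+ replicate 4 was the highest line for both genes. Without it, Col4a1 was at -0.65 (adjusted p = 0.281) and Col4a2 at -0.49 (adjusted p = 0.291). Without Rnaseh2b-/- replicate 1, 2 of the 4 genes were negative (median -0.30), and without Rnaseh2b-/- replicate 2, 3 were (median -0.38). With a replicate block, 0 of the 4 were lower by the unadjusted p, against 4.54% of all genes tested.

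Of the X-linked pair, Col4a6 lay above the controls and Col4a5 among them, a difference between genes that was not tested. Col4a6, whose chain is found in basement membranes of smooth muscle and some epithelia, had log2 signals of 6.57 and 6.22 in the Rnaseh2b-/- lines and of 5.45, 5.65, 5.34 and 6.21 in the Rnaseh2b+/+ lines (log2 fold change 0.73, standard error 0.26, unadjusted p = 0.0266, adjusted p = 0.235). Its signal exceeded background in both Rnaseh2b-/- lines and in 2 of the 4 Rnaseh2b+/+ lines, and Rnaseh2b+/+ replicate 4 lay 0.0023 below the nearer Rnaseh2b-/- line. Col4a5, its neighbour and partner chain, was at 9.69 and 9.95 in the Rnaseh2b-/- lines and at 9.58, 9.90, 9.89 and 10.10 in the Rnaseh2b+/+ lines, overlapping them (log2 fold change -0.05, 95% interval -0.47 to 0.37). Its 2 probes had opposite signs, -0.35 and 0.26. Col4a3 and Col4a4, the other chains of the kidney and lung form, had no probe above background.

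Other basement membrane genes were read on a list of laminins, nidogens and related proteins. Of 15 tested, 10 had a positive log2 fold change (4820 of all 10160 genes tested) and none passed the adjusted threshold. By the unadjusted p 4 were higher and 0 lower, against 7.99% and 9.13% of all genes tested. Agrn, the heparan sulfate proteoglycan that clusters acetylcholine receptors, had log2 signals of 11.02 and 10.81 in the Rnaseh2b-/- lines and of 9.60, 9.98, 9.86 and 10.18 in the Rnaseh2b+/+ lines (log2 fold change 1.01, standard error 0.19, adjusted p = 0.0772). For Nid2, which links laminin to type IV collagen, the log2 fold change was 0.71 (adjusted p = 0.129), and for the matrix glycoprotein Fbln1 0.65 (adjusted p = 0.267). For the laminin chain Lama1, also counted as higher, it was 0.75 (adjusted p = 0.250). Lama1 was above background only in Rnaseh2b-/- replicate 1 (6.30, with 5.50 in the other Rnaseh2b-/- line and 4.74 to 5.47 in the controls). It was tested only because of that line. The mean of the Rnaseh2b-/- lines was at least 1.26-fold higher than the controls, a bound set by that line.

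Network-forming and anchoring collagens, taken as 1 type that includes Col7a1, had the lowest median of the types with at least 3 genes. It was -1.25 over 4 genes (-0.97 with Col10a1 at its bound, and -0.73 with quantile normalization and no background correction). Col8a1 and Col8a2 encode the chains of type VIII collagen, a short-chain collagen of vessel walls and of the membrane under the corneal endothelium. Col8a1 had log2 signals of 10.82 and 11.33 in the Rnaseh2b-/- lines and of 11.88, 12.87, 12.50 and 12.31 in the Rnaseh2b+/+ lines (log2 fold change -1.31, standard error 0.29, adjusted p = 0.0987), a fold of 2.48 lower with a gap of 0.55 between the groups. Col8a2 had 6.13 and 6.60 in the Rnaseh2b-/- lines and 6.60, 7.97, 7.97 and 7.65 in the Rnaseh2b+/+ lines, so that Rnaseh2b+/+ replicate 1 lay 0.0026 above the nearer Rnaseh2b-/- line (log2 fold change -1.19, standard error 0.40, adjusted p = 0.218). All 3 probes of Col8a2 gave a negative fold change, between -1.66 and -0.64, and so did both of Col8a1, -1.43 and -1.20.

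Col10a1 encodes the type X collagen of hypertrophic chondrocytes. Its log2 signals were 4.58 and 4.52 in the Rnaseh2b-/- lines, not above background, and 5.14, 7.03, 6.21 and 6.91 in the Rnaseh2b+/+ lines, of which 3 were above background. It was at least 1.69-fold lower in the Rnaseh2b-/- lines (measured log2 fold change -1.77, standard error 0.50, adjusted p = 0.166, and -0.69 without background correction), and the control lines differed widely among themselves. Of the cartilage collagens left out by the rule, Col2a1 was lower (log2 fold change -1.71, adjusted p = 0.0278), with 7.38 and 7.85 in the Rnaseh2b-/- lines and 9.09 to 9.52 in the Rnaseh2b+/+ lines. Col7a1, the chain of the anchoring fibrils under skin epithelium, overlapped the controls (log2 fold change -0.14, 95% interval -0.63 to 0.36).

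The remaining types held 11 tested genes, of which 1, Col28a1, was at an unadjusted p under 0.05, with a positive fold change. Of all genes tested, 7.99% were higher and 9.13% lower at that p. Col6a1 and Col6a2, chains of the type VI microfibrils around cells, had log2 fold changes of -0.24 (adjusted p = 0.483) and -0.30 (adjusted p = 0.330), with Col6a2 at 8.61 and 8.79 in the Rnaseh2b-/- lines and at 8.83 to 9.10 in the Rnaseh2b+/+ lines. Among the fibril-associated types, Col14a1 (-0.73, adjusted p = 0.345) and Col16a1 (-0.25, adjusted p = 0.451) overlapped the controls. The multiplexins Col15a1 (0.60, adjusted p = 0.488) and Col18a1 (0.09, adjusted p = 0.930), whose chains sit at basement membranes and from the second of which endostatin is cut, overlapped them too, and the 2 probes of Col18a1 had opposite signs (-0.10 and 0.28). Col17a1, the hemidesmosome collagen, was at 0.10 (adjusted p = 0.858).

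Several of the genes with higher means were high in a single Rnaseh2b-/- line. Col26a1, first found in testis and ovary, had log2 signals of 9.40 and 4.98 in the Rnaseh2b-/- lines and of 4.69, 5.50, 4.68 and 4.54 in the Rnaseh2b+/+ lines, so 1 of the Rnaseh2b-/- lines stood far above the highest control and the other among them (measured log2 fold change 2.34, standard error 1.05, adjusted p = 0.308). No control was above background, and the mean of the Rnaseh2b-/- lines was at least 3.09-fold higher than the controls, a bound set by the high line. Col19a1, a fibril-associated chain of the embryo, was likewise above background only in Rnaseh2b-/- replicate 1 (5.78, with 4.60 in the other Rnaseh2b-/- line and 4.57 to 4.94 in the Rnaseh2b+/+ lines). The membrane-spanning Col23a1 was high in the other line (5.30 and 7.42, against 5.31, 6.67, 5.24 and 5.36 in the Rnaseh2b+/+ lines). The 2 Rnaseh2b-/- lines were more than 1 apart on the log2 scale for 5 of the 29 collagen genes (Col11a2, Col18a1, Col19a1, Col23a1 and Col26a1) and for 6.03% of all genes tested.

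Col28a1, whose chain is known from the sheaths of peripheral nerves, was the member with the lowest p among those with a positive fold change. Its log2 signals were 5.18 and 6.05 in the Rnaseh2b-/- lines, above background only in replicate 2, and 4.74, 4.66, 4.55 and 4.61 in the Rnaseh2b+/+ lines, not above background in any. It was at least 1.03-fold higher in the Rnaseh2b-/- lines (measured log2 fold change 0.97, standard error 0.24, adjusted p = 0.125).

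**Figure D3:**
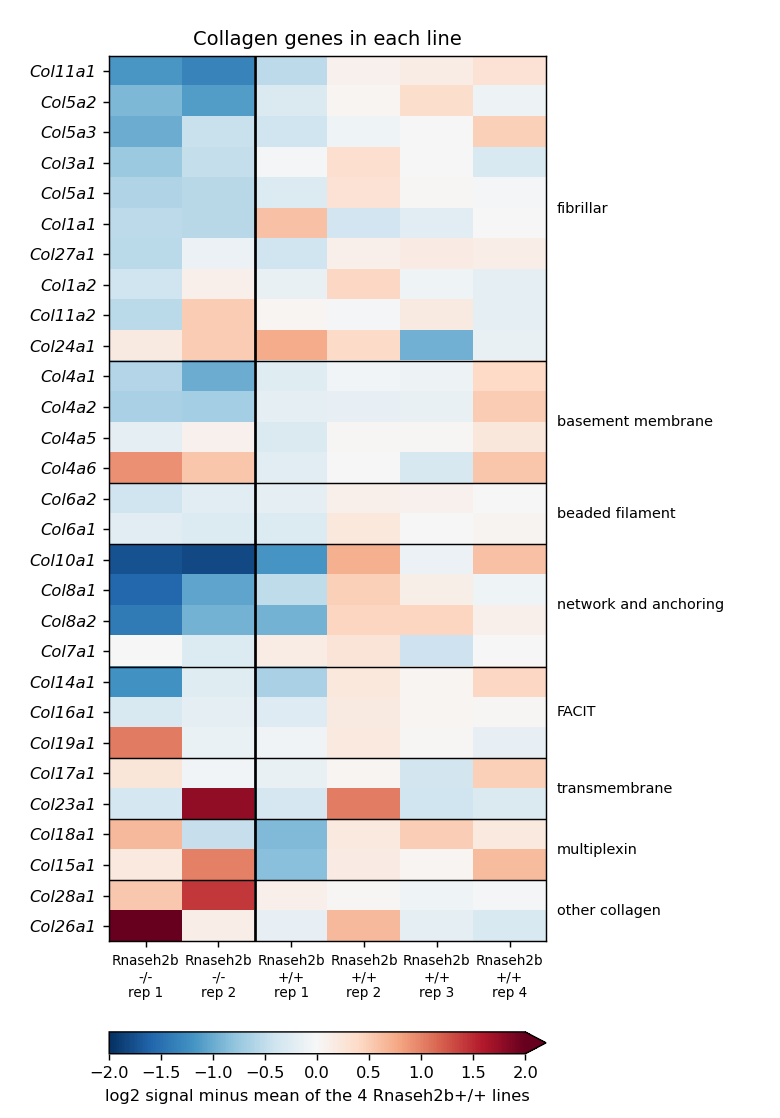
Log2 signal of each tested collagen gene (rows, grouped by type) in each line (columns, 2 Rnaseh2b-/- lines left of the 4 Rnaseh2b+/+ lines), as the difference to the mean of the Rnaseh2b+/+ lines, with blue for lower and red for higher. Most fibrillar and network rows are blue in both Rnaseh2b-/- columns, Col26a1 is red in 1 of them (past the end of the colour scale, against controls not above background), and Rnaseh2b+/+ replicate 1 is the bluest control column.

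Among the controls, Rnaseh2b+/+ replicate 1 had the lowest signal for 17 of the 29 collagen genes (58.6%), as it did for 33.9% of all genes tested. It was the lowest control for 9 of the 10 collagen genes lower at an unadjusted p, against 46.1% of the 928 genes lower in all. Where it was the lowest control, leaving it out raises the control mean by construction. Without Rnaseh2b+/+ replicate 1, 5 collagen genes passed the threshold, and it was the lowest control for each. Of these, 3 were above background in both groups: Col8a2 (log2 fold change -1.50, adjusted p = 0.0298), Col8a1 (-1.48, adjusted p = 0.0428) and Col5a2 (-1.10, adjusted p = 0.0446). The other 2, Col11a1 (adjusted p = 0.0156) and Col10a1 (adjusted p = 0.0261), were not above background in the Rnaseh2b-/- lines and were tested only because of the controls. Without it 104 of all genes were lower at that threshold, against 16 with it, and the other lines left out in turn gave no lower collagen gene. Of the 14 collagen genes with more than 1 tested probe, the probes had 1 sign for 11 and both signs for 3 (Col4a5, Col11a2 and Col18a1).

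Of 20 tested enzymes and chaperones that modify and fold collagen chains, 15 had a negative log2 fold change (5340 of all 10160 genes tested). Their median was -0.31, against -0.02 over all genes tested, and none of the 20 passed the adjusted threshold in either direction. By the unadjusted p 6 were lower, against 9.13% of all genes tested, and none higher, against 7.99%. Both Rnaseh2b-/- lines were below all controls for 9 of the 20, against 15.1% of all genes tested. P3h3, of the prolyl 3-hydroxylase family, had log2 signals of 8.70 and 9.27 in the Rnaseh2b-/- lines and of 10.21, 10.19, 10.27 and 10.05 in the Rnaseh2b+/+ lines (log2 fold change -1.19, standard error 0.18, adjusted p = 0.0549). P4ha3, a catalytic chain of prolyl 4-hydroxylase, had 6.37 and 6.32 in the Rnaseh2b-/- lines and 7.36, 7.94, 8.18 and 7.55 in the Rnaseh2b+/+ lines (log2 fold change -1.41, standard error 0.24, adjusted p = 0.0676).

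The next were Plod1, a lysyl hydroxylase, at 7.80 and 7.79 in the Rnaseh2b-/- lines and 8.44, 8.94, 8.65 and 8.70 in the Rnaseh2b+/+ lines (log2 fold change -0.89, standard error 0.16, adjusted p = 0.0772), and Crtap, the partner of prolyl 3-hydroxylase 1, with -0.50 on the same scale (adjusted p = 0.166). The prolyl isomerase Fkbp14 (-0.55, adjusted p = 0.185) and the collagen galactosyltransferase Colgalt1 (-0.62, adjusted p = 0.219) were the other 2, named with Serpinh1 and P4hb after their values were seen. Serpinh1, the collagen chaperone HSP47, was at -0.15 (adjusted p = 0.559), and P4hb, the shared subunit of prolyl 4-hydroxylase, at 0.03 (95% interval -0.27 to 0.33).

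For the later steps, of 5 tested genes of collagen export and transcription, 0 had an unadjusted p under 0.05. Of all genes tested, 7.99% were higher and 9.13% lower at that p. Creb3l1, a factor that drives collagen transcription, was at -0.49 (adjusted p = 0.328), the coat proteins Sec23a at -0.33 (adjusted p = 0.329) and Sec24d at -0.18 (adjusted p = 0.581), and Trappc2, which takes part in procollagen export, at 0.30 (adjusted p = 0.477). Of 8 genes of propeptide cleavage and cross-linking, 7 had a negative fold change (5340 of all 10160 genes tested). None was lower at an unadjusted p, against 9.13% of all genes tested. The transglutaminase Tgm2 alone was higher at an unadjusted p, against 7.99% (log2 fold change 0.998, adjusted p = 0.252). The lysyl oxidases Loxl1 and Lox were at -0.45 (adjusted p = 0.301) and -0.38 (adjusted p = 0.467), and the procollagen protease Bmp1 at -0.32 (adjusted p = 0.429).

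Of 14 genes of collagen degradation and uptake, by the unadjusted p 2 were higher and 1 lower, against 7.99% and 9.13% of all genes tested. None passed the adjusted threshold. Fap, a protease of activated fibroblasts, had log2 signals of 8.63 and 7.97 in the Rnaseh2b-/- lines and of 7.19, 7.38, 6.59 and 6.55 in the Rnaseh2b+/+ lines (log2 fold change 1.38, standard error 0.31, adjusted p = 0.105). Mmp13, an interstitial collagenase, was above background only in the Rnaseh2b-/- lines (6.37 and 5.67, against 4.67, 5.31, 5.04 and 5.28 in the Rnaseh2b+/+ lines) and was at least 1.37-fold higher there (measured log2 fold change 0.94, adjusted p = 0.157). The membrane-bound metalloproteinases Mmp16 and Mmp14 were at -0.42 (adjusted p = 0.277) and -0.50 (adjusted p = 0.311).

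**Figure D4:**
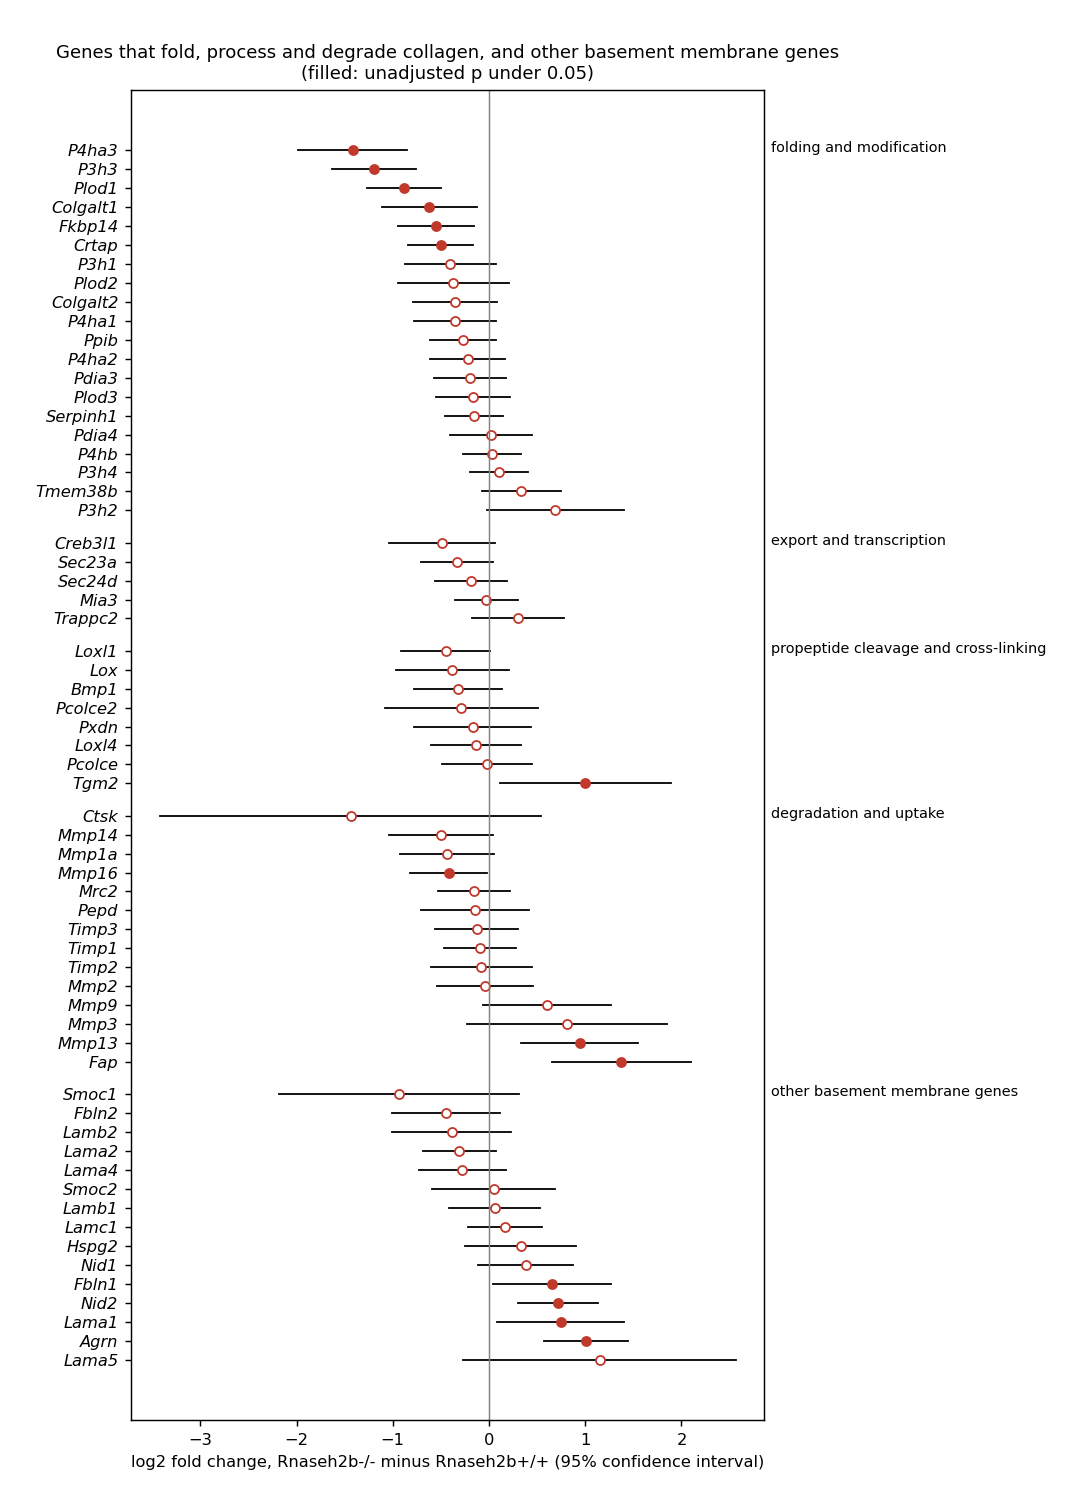
Log2 fold change (Rnaseh2b-/- minus Rnaseh2b+/+, x axis) with 95% confidence intervals from limma of the tested genes on 5 lists around collagen, 1 row per gene, with filled points for an unadjusted p under 0.05. In the folding and modification list 6 genes are filled, all left of 0 with P4ha3 at -1.41. In the list of other basement membrane genes 4 are filled, all right of 0. Of these, Lama1 was above background in 1 Rnaseh2b-/- line only.

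Markers of cell types were read beside the collagens. Of 13 tested fibroblast and mesenchyme markers, 0 had an unadjusted p under 0.05, where 7.99% of all genes tested were higher and 9.13% lower. Vim was at 14.10 and 13.99 in the Rnaseh2b-/- lines and 13.89 to 14.33 in the Rnaseh2b+/+ lines, and the list's mean relative to the controls was -0.47 and 0.38 in the Rnaseh2b-/- lines, on either side of the controls (-0.10 to 0.12). Epithelial markers were 2.43 and 1.54 above the control mean in the Rnaseh2b-/- lines, with -0.41 to 0.37 in the Rnaseh2b+/+ lines. Of these markers, 8 of 10 were higher at an unadjusted p, against 7.99% of all genes tested (1, Tspan8, at an adjusted p of 0.0400). Markers of skeletal and cardiac muscle were 4.87 and 0.80 above the control mean in the Rnaseh2b-/- lines, with -0.39 to 0.59 in the Rnaseh2b+/+ lines. Of these, 13 of 14 were higher at an unadjusted p, against 7.99% of all genes tested (1, Myl7, at an adjusted p of 0.00954). Among the genes counted as higher, Cldn3 of epithelium and Myl7, Myod1 and Tnnt3 of muscle were above background only in Rnaseh2b-/- lines. They were tested only because of those lines. The line with 4.87 is the line in which Col26a1 and Col19a1 were high. Of the epithelial list, 8 of 18 genes, Epcam among them, had no probe above background on any array, and the same held for Pecam1 of endothelium, Ptprc of blood and Sox10 of Schwann cells.

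Of the other marker lists, by the unadjusted p, smooth muscle had 2 higher and 3 lower of 8, and endothelium 2 and 1 of 5. Cartilage had 1 and 2 of 6 (Col2a1 at the adjusted threshold), visceral and parietal endoderm 3 and 0 of 6, and neural and Schwann cells 1 and 0 of 3. Over all genes tested, 7.99% were higher and 9.13% lower. Of the genes counted here, Rbp4 and Foxa2 of endoderm and Acan of cartilage were above background only in Rnaseh2b-/- lines, and Col9a2 of cartilage only in Rnaseh2b+/+ lines. They were tested only because of those lines. For blood and bone, with 3 tested markers each, none was higher or lower. Of 14 endoderm markers on the array, from cells that make much type IV collagen, only 6 were tested. The others, Afp and Ttr among them, had no probe above background on any array. The 6 averaged 0.62 and 0.79 above the control mean in the Rnaseh2b-/- lines, with -0.26 to 0.36 in the Rnaseh2b+/+ lines. Their log2 fold changes were positive for 5 and negative for 1, from -0.33 (Thbd) to 1.94 (Gata6). The part of these markers in the collagen values was not tested.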

How the data were processed

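RNA of 2 Rnaseh2b-/- and 4 Rnaseh2b+/+ MEF lines was hybridised to 1-colour Illumina arrays. The authors deposited the raw bead-summary intensity of 45281 probes together with detection p-values from the scanner software. They also deposited log2 values after neqc, used here as an alternative, which differed by at most 0.109. In R 4.3.3, limma 3.58.1 was run on the intensity: neqc took the background from those p-values (smallest step 1 in 936), added an offset of 16 and quantile-normalized the arrays. Of 18271 probes with a detection p under 0.01 on at least 1 array, 15805 had 1 gene symbol in the platform annotation, updated with RefSeq (GRCm38.p6), and probes were averaged by gene, which gave 10160 genes. A linear model of 2 groups was fitted with eBayes (residual df 4, prior df 3.07), with the Benjamini-Hochberg threshold at 0.05. A gene above background in a single group is given as a bound against the lowest detected signal of each dim array, or the gene's own where higher, beside its measured values. Each line is labelled as a biological replicate, and precision is limited by the 6 arrays.

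Members and gene lists were chosen with earlier results of these data known. Every collagen gene was named, with up to 4 members of each pathway list (those past the threshold, then the smallest p), Rnaseh2b and marker genes. Steps were tested on simulated arrays. The alternatives were 2 filters, 4 normalizations, 2 treatments of probes, 2 variance models, every line omitted in turn and a block for replicate number. Position of the probes in the transcripts was not examined.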

Additional observations from a re-analysis of the deposited data

Results flagged for a closer look

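In the 4 Rnaseh2b+/+ lines, 5 of 64 values examined (each named gene and the means of the gene lists) had 1 line far from the other 3 by Dixon's gap ratio (the gap to the nearest line over the range, beyond its 95% critical value), where chance gives 3.2. Col4a2 had a ratio of 0.955, with Rnaseh2b+/+ replicate 4 at 12.33 above the rest. Col23a1 (0.914), Col1a2 (0.857) and Col26a1 (0.845) each had Rnaseh2b+/+ replicate 2 above the rest, at 6.67, 13.44 and 5.50. Col27a1 (0.874) had Rnaseh2b+/+ replicate 1 below the rest, at 5.26.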

How the results depend on the processing

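Over 17 alternatives, 824 of 842 log2 fold changes of the named genes kept their sign, and 41 of 50 genes never turned. The median of the collagen genes was -0.25, -0.0468 with no filter on detection (37 genes) and -0.46 to -0.19 with a line left out. The adjusted count of lower genes was 0, but 1 with the brightest probe, 1 with each probe tested (Col5a2 in both) and 0 to 5 with a line left out (5 without Rnaseh2b+/+ replicate 1). The adjusted count of higher genes was 0 to 2 with a line left out (2 without Rnaseh2b-/- replicate 2, Col26a1 and Col19a1, where the omitted line was the low one, the spread came from the controls and no control was above background). At an unadjusted p, 1 collagen gene was higher with the stricter filter (at least 2 arrays) and 1 to 3 with a line left out, and 5 to 15 were lower. The 15 came without Rnaseh2b+/+ replicate 1, where 12% of all genes tested were lower at that p, against 9.13% in the main fit. With another Rnaseh2b+/+ line left out, 6.3% to 6.92% of all genes were lower. The 5 came from a fit with 1 Rnaseh2b-/- line. Scaling by the median moved the median of all genes to -0.16 and gave 29 genes higher and 25 lower of all, against 36 and 16. By the unadjusted p, 14 collagen genes were lower with that scaling, where 16.5% of all genes tested were. The calls on all genes with a line left out ran between 0 and 293 higher.

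With the replicate number as a replicate block, by the unadjusted p 6 collagen genes (3 of them fibrillar and 0 of basement membranes) were lower and 3 higher. Of all 10160 genes tested, 461 (4.54%) were lower and 448 higher in that fit. No collagen gene passed the threshold, Col24a1 was at -0.21 and Col4a5 at 0.0800. Only 2 pairs share a number, deviations correlated at 0.096 and 0.061, and the labels name nothing that such lines share, so the numbers were not taken to pair them. With it Rnaseh2b kept -4.01 but had an adjusted p of 0.156.

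Signs turned for genes near 0 and also for some further from it. In the main fit these were Col23a1 (0.71), Lox (-0.38), Col24a1 (0.35) and Trappc2 (0.30). Col18a1 was at -0.0464 with median scaling, -0.10 with the brightest probe, -0.10 with array weights, and with a line left out ran between -0.47 and 0.66. With no filter Col17a1 was at -0.17 and Trappc2 at -0.0634. With a line left out, Col17a1 ran between -0.0468 and 0.26, Col11a2 between -0.55 and 0.51, Col4a5 between -0.18 and 0.0813, Col1a2 between -0.40 and 0.11, Col23a1 between -0.35 and 1.78 and Lox between -0.83 and 0.0727. P3h3 passed the threshold under 5 alternatives (adjusted p 0.00748 to 0.0493 there), P4ha3 and Plod1 under 2 each and Agrn under 1.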
